A study of Rattus norvegicus with 16 samples.

Results

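The genes followed here move iron, transferrin and heme in the rat kidney cortex: 10 symbols, which fill 11 of the 32623 rows of the gene table because Slc40a1 has 2 rows. They were taken by symbol alone, and all 11 rows passed the filter on low counts that left 14390 rows to test. The data are 16 RNA sequencing libraries of snap-frozen kidney cortex, with 4 libraries in each of 4 groups made by age (young or old) and sex, and with 10827485 to 35957516 counted reads per library. All groups carried the same genotype label, "Homo", which the labels do not explain, and all were marked as untreated. Neither the age in months nor the strain was stated. Diabetic kidney disease appears in the title of the study, yet none of the libraries is labelled as diabetic. Whether the 4 libraries of a group came from 4 animals is not stated, and the p-values refer to the spread among libraries, which may be technical.

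Iron travels in blood bound to transferrin (Tf) and enters cells through the transferrin receptor (Tfrc), after which the divalent metal transporter (Slc11a2) carries it out of the endosome. Inside the cell it is stored in ferritin, a shell of heavy (Fth1) and light (Ftl1) chains, and ferroportin (Slc40a1) exports it with the help of ferroxidases such as ceruloplasmin (Cp). Haptoglobin (Hp) and hemopexin (Hpx) bind free hemoglobin and free heme in plasma and are made mostly in the liver, and iron regulatory protein 2 (Ireb2) controls the translation of ferritin mRNA and the stability of Tfrc mRNA when iron is scarce. In the kidney, proximal tubule cells take filtered transferrin back from the urine.

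The promoters of Tf, Cp, Hpx and Tfrc are shown because these 4 genes carried the largest passed differences that involved old males, and because each holds a match to one of the motifs searched. Each sequence is the 250 bases before the annotated start in the RefSeq table of the GRCr8 build, written along the gene's own strand. They lie at chr8:112695377-112695626 on the minus strand for Tf, chr2:104368420-104368669 on the plus strand for Cp, chr1:169352156-169352405 on the minus strand for Hpx and chr11:81690319-81690568 on the minus strand for Tfrc. Capitals mark a C/EBP motif, the liver and acute-phase element TTGCNNAA read on either strand, in the first 3 and the hypoxia response core ACGTG in the last.
Tf: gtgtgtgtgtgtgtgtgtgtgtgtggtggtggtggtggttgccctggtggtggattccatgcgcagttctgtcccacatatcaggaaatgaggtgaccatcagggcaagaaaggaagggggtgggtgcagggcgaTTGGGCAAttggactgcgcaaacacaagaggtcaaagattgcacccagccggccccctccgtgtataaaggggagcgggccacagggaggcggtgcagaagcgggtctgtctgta
Cp: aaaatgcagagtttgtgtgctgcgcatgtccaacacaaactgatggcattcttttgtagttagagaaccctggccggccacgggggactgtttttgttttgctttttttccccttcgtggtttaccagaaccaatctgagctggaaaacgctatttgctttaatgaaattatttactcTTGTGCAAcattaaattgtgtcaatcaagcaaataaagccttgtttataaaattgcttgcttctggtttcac
Hpx: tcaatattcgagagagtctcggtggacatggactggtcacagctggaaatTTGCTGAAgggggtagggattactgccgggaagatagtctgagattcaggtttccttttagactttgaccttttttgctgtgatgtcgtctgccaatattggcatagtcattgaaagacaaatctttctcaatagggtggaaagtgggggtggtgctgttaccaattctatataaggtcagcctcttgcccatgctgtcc
Tfrc: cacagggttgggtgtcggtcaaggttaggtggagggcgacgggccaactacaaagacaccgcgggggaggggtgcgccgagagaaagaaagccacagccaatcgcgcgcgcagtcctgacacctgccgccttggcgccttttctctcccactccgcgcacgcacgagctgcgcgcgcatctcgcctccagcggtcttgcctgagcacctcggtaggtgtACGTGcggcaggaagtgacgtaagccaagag
The table held 8 promoters for 7 of the 10 symbols, with none for Fth1, Ftl1 or Hp, so these were not searched. The C/EBP motif lay in 3 of those 8, starting 115 bases before the start in Tf, 72 in Cp and 200 in Hpx. Of all 33469 promoters in the table, each read from 250 bases before to 50 after the start, 10.6% held the same letters and 19.3% held ACGTG, which lay 31 bases before the start in Tfrc. The STAT motif TTCNNNGAA, present in 8.87% of all promoters, was not found in the windows of the members. Neither was the consensus of the iron responsive element loop, present in 1.57%. It was searched on the sense strand in the 50 bases after the start alone, so the rest of each transcript was not covered. These matches describe letters in a window.

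The members differed widely in level. On the RPKM scale, which divides by gene length and sequencing depth, Fth1 ranged from 2005 to 3185 over the 16 libraries. A second ferritin row at the chromosome 1 light-chain locus, described below, ranged from 1499 to 2569. Fth1 and that row therefore stood far above Tf (20.7 to 207.8), Slc11a2 (26.3 to 42.1), Tfrc (7.82 to 28.6), Ireb2 (11.8 to 16.5), Cp (4.16 to 66.8) and Slc40a1 (3.11 to 5.89). The row named Ftl1 ranged from 6.71 to 12.2. Hp and Hpx reached at most 6.99 and 3.89 RPKM and lay under 1 in many libraries. Old male replicate 2 was the deepest library and old male replicate 4 the shallowest. Levels of a gene across libraries are given as CPM, counts scaled to one common library size. Of the markers set for the tissue, the proximal tubule genes summed to at least 9331 CPM in every library. Pvalb, on the distal tubule list, had 0 reads in every group. The Y-linked genes Eif2s3y and Kdm5d were at 0 in all 8 female and at 26.3 CPM or more in all 8 male libraries. In the titles, 5 of the 8 old libraries carry the identifier prefix OP (old female replicates 1 and 2, old male replicates 1, 2 and 3), and the other 11 libraries, every young one included, carry DS. What the prefixes stand for is not given, so values within DS are set beside the results they touch. Old males have 1 library within DS, replicate 4, so such a value compares that library with the DS libraries of another group, and an adjusted p printed with it assumes that it varies like the other groups. In bulk tissue, fewer cells of a type and less RNA per cell cannot be told apart, which holds for every difference here.

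**Figure D1:**
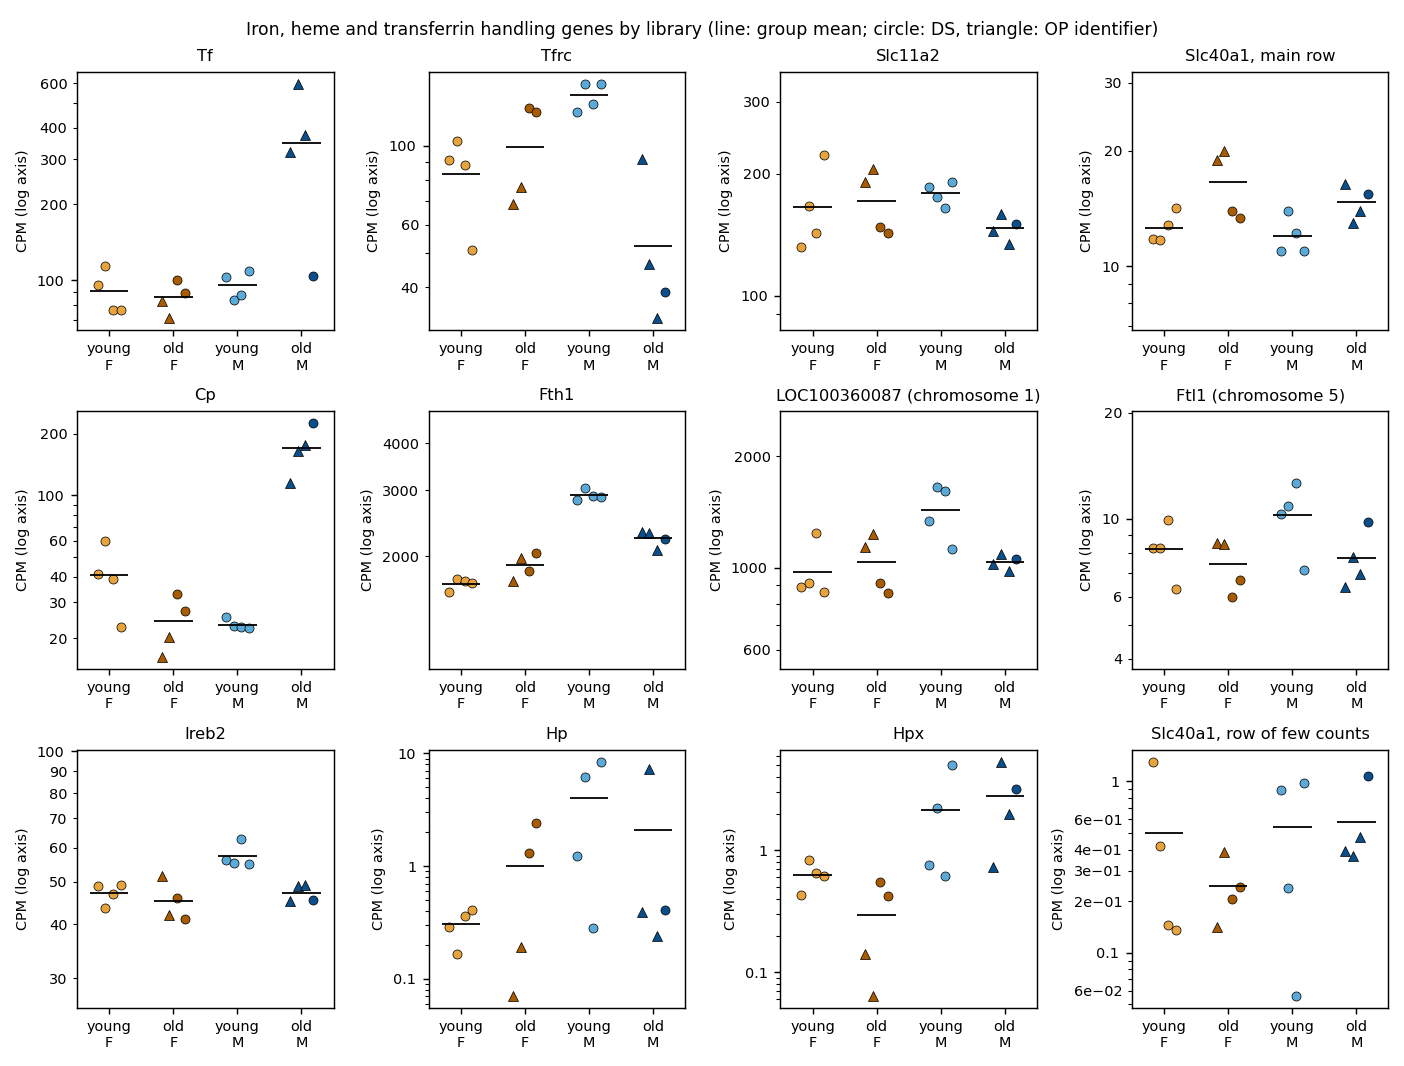
CPM (log axis) of each gene in each of the 16 libraries, by group, with lines at the group means, circles for libraries with the DS prefix and triangles for OP. Cp is higher in the 4 old male libraries (114.9 to 226.1 CPM) than in the other 12, and for Tf old male replicate 4 (104.2 CPM) sits with the other groups.

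Transferrin was higher in 3 of the 4 old male libraries. Tf, on CPM, was 103.6, 83.5, 87.4 and 108.9 in young males and 320.8, 596.8, 375.7 and 104.2 in old males. It was 96.0, 114.5, 76.4 and 76.4 in young females and 83.4, 71.2, 100.5 and 89.1 in old females. The old males thus split, with replicates 1 to 3 above all other libraries and replicate 4 inside the range of the young males, so that the 2 male age groups overlapped. The fitted log2 difference of old against young males was 1.87 (SE 0.332, edgeR quasi-likelihood test, adjusted p = 0.000196), a 3.65-fold rise in the mean. Old males against old females gave 2.03 (SE 0.334, edgeR adjusted p = 9.39e-05), with no overlap. Replicate 4 is the one old male library with the DS prefix, and within DS the difference was 0.11 from young males (edgeR adjusted p = 0.717) and 0.12 from old females (edgeR adjusted p = 0.738). With 1 DS library among the old males, the prefix and that library cannot be told apart.

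The transferrin receptor went the other way in old males. Tfrc, on CPM, was 124.3, 148.9, 130.9 and 149.1 in young males and 91.4, 46.5, 32.9 and 38.8 in old males. In young females it was 91.2, 102.7, 88.0 and 50.9, and in old females 68.4, 76.5, 127.5 and 124.1. All 4 old male libraries lay below all young males, and old female replicates 3 and 4, both DS, lay above replicates 1 and 2, both OP. Tfrc fell by 1.40 on the log2 scale in old against young males (SE 0.289, edgeR adjusted p = 0.000731), which is 2.64-fold. Within DS, where old male replicate 4 stands alone, the fall was 1.84. It was also lower in old males than in old females, with a log2 difference of -0.92 (SE 0.287, edgeR adjusted p = 0.0135), although these groups overlapped. Without the 5 libraries of high albumin mRNA described below, that difference was -0.42 (edgeR adjusted p = 0.426). Young males stood above young females without overlap, at a log2 difference of 0.73 (SE 0.285) that did not pass (edgeR adjusted p = 0.0603). Within DS alone, which holds all 8 young libraries, the same size passed (edgeR adjusted p = 0.00507).

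Slc11a2, which carries iron across the endosomal membrane, gave no difference that passed in the 5 contrasts. Its levels were 184.9, 175.6, 164.6 and 191.1 CPM in young males and 144.3, 159.3, 134.1 and 149.9 in old males. These 2 groups did not overlap, with a log2 difference of -0.29 (SE 0.142, edgeR adjusted p = 0.105). The females spread further, from 132.1 to 222.2 CPM when young and from 142.8 to 204.9 when old. The male difference passed when only the male groups were fitted (-0.28, edgeR adjusted p = 0.00873) and with the prefix as a covariate (-0.46, edgeR adjusted p = 0.0406). Scaled by library totals alone it was 0.04 (edgeR adjusted p = 0.823). Without young female replicate 4, the highest of the females, the male age difference less the female one was -0.51 (edgeR adjusted p = 0.0216).

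The ferritin heavy chain differed by sex in the young. Fth1 was 1604, 1740, 1720 and 1694 CPM in young females and 2816, 3049, 2892 and 2884 in young males. Every young male library lay above every young female one, with little spread in either group. The log2 difference was 0.78 (SE 0.0768, edgeR adjusted p = 9.95e-07), or 1.72-fold. In old males Fth1 was 2317, 2306, 2079 and 2226 CPM, below all young males, a fall of 0.38 on the log2 scale (SE 0.0764, edgeR adjusted p = 0.000556). Scaled by library totals alone, which shifted the median of all genes by 0.32, this was -0.06 (edgeR adjusted p = 0.494). In old females it was 1719, 1979, 1829 and 2035 CPM, and the old males stayed above them by 0.24 (SE 0.0764, edgeR adjusted p = 0.0154). That last call was lost in 4 of the alternatives, among them leaving out old female replicate 1, which gave 0.20 (edgeR adjusted p = 0.0504).

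The light chain needs a remark on names. The table's row called Ftl1 lies on chromosome 5 and held few reads, at 6.01 to 12.6 CPM. Its 6 nearest named genes, among them Cd52 and Ubxn11, are neighbours of LOC100360087 in RefSeq, where Ftl1 is a synonym of that locus. The table's row called LOC100360087 lies on chromosome 1, and all 6 of its nearest named genes, among them Bax and Gys1, are neighbours of RefSeq's Ftl1. This row was added after its values were seen. RefSeq lists 14 Ftl1 pseudogenes and 5 Fth1 pseudogenes, so reads of either chain may be shared with copies, which makes both rows uncertain.

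The chromosome 1 row (LOC100360087) was 1336, 1654, 1608 and 1125 CPM in young males against 885.6, 907.6, 1241 and 857.2 in young females. It was 1022, 1088, 981.2 and 1057 in old males and 1134, 1235, 908.6 and 854.0 in old females. Young males were high, overlapping the young females through young female replicate 3, and the old males formed a tight group below the young males. The difference of young males from young females was 0.56 (SE 0.146, edgeR adjusted p = 0.00779) and that of old from young males was -0.46 (SE 0.146, edgeR adjusted p = 0.0141). Scaled by library totals alone the latter was -0.13 (edgeR adjusted p = 0.383), and within DS -0.44 (edgeR adjusted p = 0.15). With an inner medulla score as a covariate the former was 0.02 (edgeR adjusted p = 0.949). The inner medulla markers summed to 186.4 to 525.9 CPM in young females and 89.9 to 110.3 in young males. Of the 7 tested, 6 were lower in young males, where 15.7% of all tested rows passed as lower. The part of these markers in the result was not tested further. The chromosome 5 row (Ftl1) passed in none of the 5 contrasts, with -0.43 in old against young males (SE 0.18, edgeR adjusted p = 0.0578). That difference passed in 5 of 20 alternatives, among them DESeq2 (-0.43, adjusted p = 0.0462) and leaving out young male replicate 4 (-0.56, edgeR adjusted p = 0.0123) or old male replicate 4 (-0.54, edgeR adjusted p = 0.0221). It shrank to -0.10 with library totals alone (edgeR adjusted p = 0.645) and to -0.08 within DS (edgeR adjusted p = 0.861).

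Within each library the ratio of Fth1 to Tfrc reads, a storage to uptake ratio, lay between 25.3 and 63.3 in old males. It lay between 19.3 and 22.6 in young males, between 16.9 and 33.2 in young females and between 14.3 and 25.9 in old females. The ratio of Fth1 to the chromosome 1 row in RPKM ran from 0.923 to 1.31 in young females, from 1.2 to 1.71 in young males, from 1.01 to 1.59 in old females and from 1.40 to 1.51 in old males. The old male values thus lay inside the ranges of young males and old females. These ratios were formed after the values were known and were not tested.

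**Figure D2:**
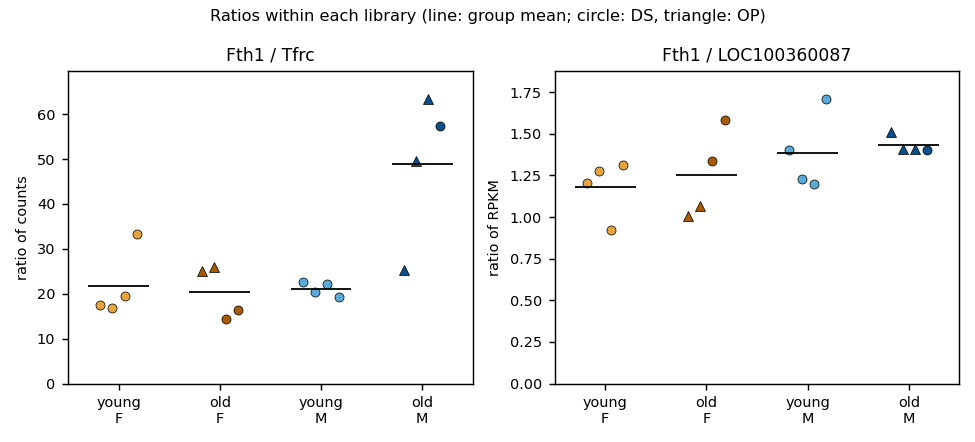
Ratio of Fth1 to Tfrc counts and ratio of Fth1 to LOC100360087 RPKM in each library, by group, with lines at the group means. Old males reach the highest Fth1 to Tfrc ratio (63.3), while young males stay between 19.3 and 22.6.

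Among the export genes, ceruloplasmin changed more than any other member that passed in the male age contrast. Cp, the copper ferroxidase, was 25.5, 22.9, 22.8 and 22.4 CPM in young males and 114.9, 164.0, 175.9 and 226.1 in old males. In young females it was 41.4, 59.6, 39.0 and 22.8, and in old females 16.3, 20.4, 33.1 and 27.2. All 4 old male libraries were above the other 12, also the DS library, which held the highest value. Cp rose by 2.86 in old against young males (SE 0.263, edgeR adjusted p = 2.98e-07), or 7.26-fold, and was 2.81 higher in old males than in old females (SE 0.262, edgeR adjusted p = 2.43e-07). Within DS, where the old males are replicate 4 alone, the differences were 3.26 and 2.89. Young males were lower than young females, with a log2 difference of -0.80 (SE 0.258, edgeR adjusted p = 0.0265), with overlap. That call was lost in 8 of 20 alternatives. Among them was leaving out any of young female replicates 1 and 2 or young male replicates 2, 3 and 4. These single losses gave values from -0.57 without young female replicate 2 to -0.80 without young female replicate 1. Over all 20 alternatives the difference ran from -0.995 to -0.459.

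Slc40a1, the only known iron exporter of mammalian cells, gave no difference that passed. Its larger row was 11.8, 11.7, 12.8 and 14.2 CPM in young females and 19.0, 20, 13.9 and 13.4 in old females. The OP old females were the high ones, and the 2 groups overlapped, with a log2 difference of 0.39 (SE 0.134, edgeR adjusted p = 0.102). Without the 5 libraries of high Alb described below it was 0.62 (edgeR adjusted p = 0.0235), and -0.04 once the inner medulla score was a covariate (edgeR adjusted p = 0.96). That score ran from 3.65 to 4.58 in young females and from 1.26 to 3.44 in old females, so in females it goes with age. The larger Slc40a1 row was 10.94, 13.91, 12.18 and 10.97 CPM in young males and 16.33, 12.96, 13.93 and 15.42 in old males, a difference of 0.28 (SE 0.133, edgeR adjusted p = 0.0883). Scaled by library totals alone, the male difference was 0.61 (edgeR adjusted p = 0.000328). The second Slc40a1 row held only 1 to 18 reads per library, and no difference in it passed.

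The plasma scavengers were near the floor of detection in most libraries. Hp counts were 4, 2, 5 and 6 reads in young females and 18, 78, 5 and 104 in young males. They were 1, 3, 19 and 40 in old females and 8, 297, 7 and 5 in old males. The libraries with 18 or more reads were young male replicates 1, 2 and 4, old female replicates 3 and 4 and old male replicate 2. None was a young female library. Hp passed for young males against young females at 3.62 (SE 1.34, edgeR adjusted p = 0.0492), with overlap. The call was lost in 11 of 18 alternatives. Among them was leaving out any of the 4 young female replicates or young male replicate 2 or 4. These single losses gave values from 2.95 without young male replicate 4 to 3.78 without young female replicate 4. Without old male replicate 2, Hp was lower in old than in young males, at -3.55 (edgeR adjusted p = 0.0106), against -0.75 (SE 0.942) with it. Leaving out the same library, the male age difference less the female one was -5.22 (edgeR adjusted p = 0.0136), against -2.44 (SE 1.80, edgeR adjusted p = 0.308) with it.

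The 5 libraries with the highest Hp CPM were also the 5 richest in albumin mRNA (Alb), a defining hepatocyte marker. Alb was 39.2 and 145 CPM in young male replicates 2 and 4, 17.9 and 22.6 in old female replicates 3 and 4, and 115 in old male replicate 2. In the other 11 libraries it was between 0 and 7.43 CPM, and it was at 0 in young female replicate 2 and old female replicate 1. Apoa1, another hepatocyte marker, was at 0 in at least 1 library of each group and reached 3.91 CPM. The whole hepatocyte list summed to 44.8 to 212 CPM in young males and 68.3 to 217 in old males. In females it summed to 22.7 to 48.3 when young and 27.8 to 61.0 when old. The fibrinogen chain Fga averaged 30.1 CPM in young females, where Alb averaged 0.815. In old males mean Fga was 44.7 and mean Fgb 18.5 CPM, against 23.7 and 2.595 in young males. Mean Alb was 29.05 CPM in old and 47.88 in young males. Fgg and Apoa1 also averaged higher in old than in young males, and Apoh, Serpina1 and Ttr lower. The sums therefore do not follow Alb alone. Of the 7 tested genes of the list, 2 passed as higher in young males than in young females and 4 in old males than in old females. The part of these transcripts in the Hp and Hpx values was not tested, and a fit without the 5 libraries rests on 2 young male and 2 old female libraries.

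**Figure D3:**
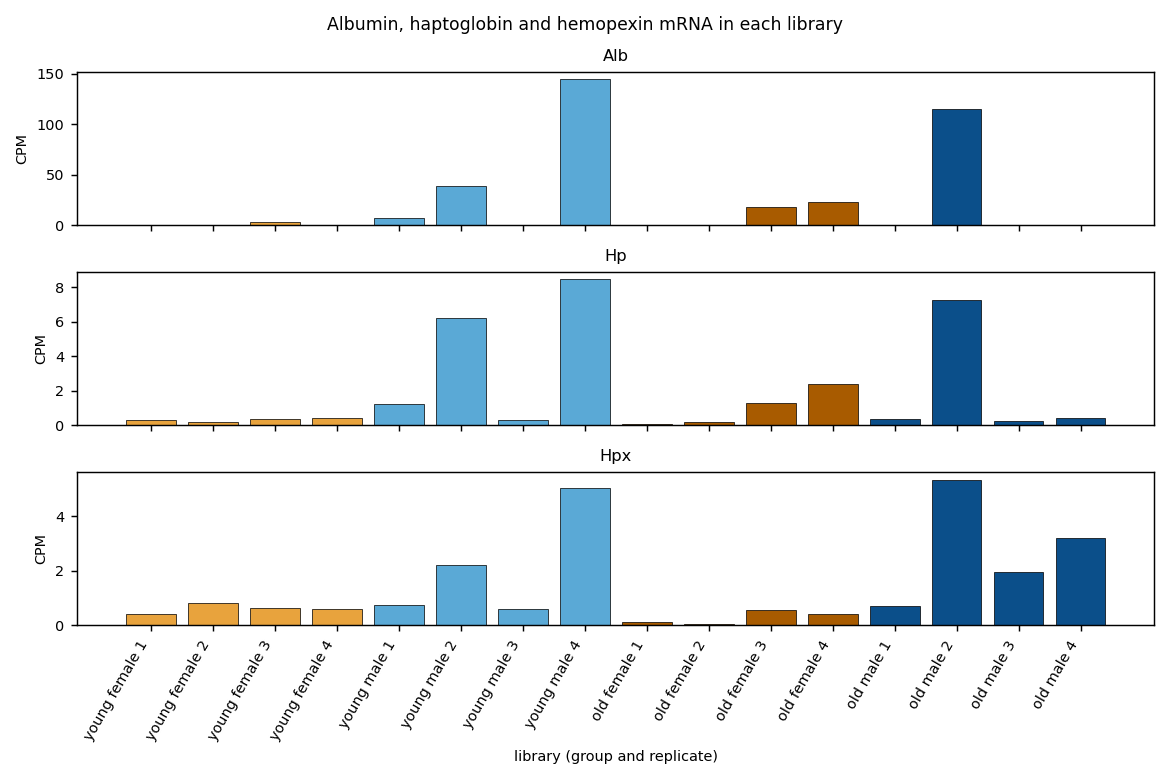
CPM of Alb, Hp and Hpx in each of the 16 libraries, coloured by group. The 5 libraries of highest Alb are also those of highest Hp, and young male replicate 1 comes next in both (Alb 7.43, Hp 1.24 CPM). Hpx is also present in old male replicates 3 and 4 (1.97 and 3.22 CPM), where Alb is 0.374 and 0.33 CPM.

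Hemopexin was higher in every old male library than in every old female one. Hpx counts were 2, 1, 8 and 7 reads in old females and 15, 219, 58 and 39 in old males. Young females had 6, 10, 9 and 9 reads, and young males 11, 28, 11 and 62. The old groups did not overlap on CPM, from 0.0641 to 0.552 in old females against 0.731 to 5.35 in old males, a log2 difference of 3.25 (SE 0.762, edgeR adjusted p = 0.002). Without old male replicate 2 it was 2.64 (edgeR adjusted p = 0.0106), and within DS 2.69 (edgeR adjusted p = 0.06). Old and young males overlapped, at 0.46 (SE 0.581, edgeR adjusted p = 0.535). The male age difference less the female one was 1.53 (SE 1.12, edgeR adjusted p = 0.302), and 4.02 without the 5 libraries of high Alb (edgeR adjusted p = 0.016).

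Ireb2, the translational regulator, differed by small amounts. It was 56.3, 55.3, 62.9 and 54.9 CPM in young males, above all libraries of the other 3 groups, which lay between 41.1 and 51.5. It was higher in young males than in young females by 0.28 (SE 0.0736, edgeR adjusted p = 0.00755) and lower in old than in young males, with a log2 difference of -0.28 (SE 0.0728, edgeR adjusted p = 0.00428). Scaled by library totals alone, the male age difference was 0.05 (edgeR adjusted p = 0.619) and the young sex difference 0.10 (edgeR adjusted p = 0.338), so the direction of the former depends on the scaling.

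Counted over the 11 rows, old against young males gave 2 higher (Tf, Cp), 3 lower (Tfrc, Fth1, Ireb2) and 6 that did not pass, where 50.0% of all 14390 tested rows passed, 25.3% as higher and 24.6% as lower. Old males against old females gave 4 higher (Tf, Fth1, Cp, Hpx) and 1 lower (Tfrc), against 49.3% of all rows. Young males against young females gave 3 higher (Fth1, Ireb2, Hp) and 1 lower (Cp), against 31.8%. The old male libraries lay wholly above or wholly below the young males for 5 of the 11 rows, against 46.3% of all rows, and wholly above or below the old females for 4, against 44.6%. All these counts are near the background shares. Old against young females gave none by edgeR, where 5.71% of all rows passed, 2.54% as higher and 3.17% as lower. In that contrast 3 of the 11 rows had an unadjusted p under 0.05: Cp at -0.74, Slc40a1 at 0.39 and Fth1 at 0.16. Of all tested rows 20.3% were under that unadjusted p. DESeq2 passed 1 of them, Cp at -0.75 (adjusted p = 0.0427). Leaving out young female replicate 4, the edgeR value for Cp was -0.94 (adjusted p = 0.0221). Each of the 4 groups serves in 2 of these contrasts, so the counts are not independent.

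**Figure D4:**
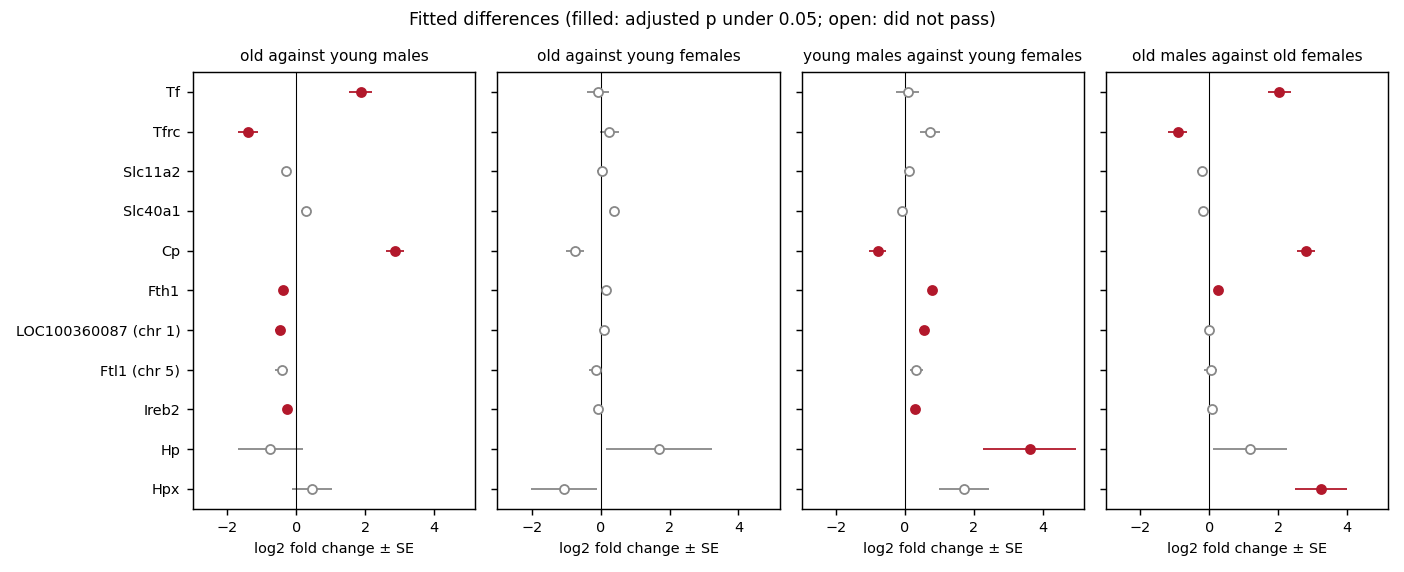
Fitted log2 fold changes with standard errors for each gene, without the small Slc40a1 row, in the 4 contrasts between groups, filled where the adjusted p is under 0.05. Cp and Tf lie to the right and Tfrc to the left in the contrasts with old males, and the old against young female panel has no filled point.

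The age difference itself differed between the sexes for 4 of the 11 rows, where 38.7% of all tested rows passed. Subtracting the female from the male log2 age difference left 3.60 for Cp (SE 0.365, edgeR adjusted p = 2.66e-06) and 1.95 for Tf (SE 0.463, edgeR adjusted p = 0.00335). It was -1.66 for Tfrc (SE 0.405, edgeR adjusted p = 0.00402) and -0.54 for Fth1 (SE 0.108, edgeR adjusted p = 0.000868). For Tf it was 0.05 within DS (edgeR adjusted p = 0.924), and for Fth1 it was -0.16 when scaled by library totals alone (edgeR adjusted p = 0.18). Without the 5 libraries of high Alb, Tfrc gave -1.03 (edgeR adjusted p = 0.172). The chromosome 1 ferritin row gave -0.55 (SE 0.206, edgeR adjusted p = 0.0434), with an adjusted p above 0.05 when any of 11 of the 16 libraries was left out.

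Other cell type markers moved with the old males. All 11 macrophage markers were higher in old than in young males, with a summed level of 537.5 to 931.6 CPM against 195.9 to 230.3, and none was at 0 in any library. Of 9 tubule injury markers 8 were higher, and of 10 proximal tubule markers 6 were lower and 2 higher, summing to 9331 to 10350 CPM against 15980 to 17340. Of 8 tested acute-phase genes other than the members, 5 were higher. Among all tested rows in this contrast, 25.3% passed as higher and 24.6% as lower. In old males Spp1 alone made 8562 to 16040 CPM of the injury sum, and Lyz2 made 340.6 to 611.3 CPM of the macrophage sum. Old male replicate 4 had the highest macrophage sum (931.6 CPM) and the highest injury sum (16950 CPM), while its Tf lay with the young males. The part of these shifts in the member differences was not tested.

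The wider set of iron genes also divided in males. Of 24 other iron genes tested, 8 rose and 9 fell in old against young males, with a median of -0.12, where 50.0% of all tested rows passed, 25.3% as higher and 24.6% as lower. Lcn2, a secreted carrier of iron-binding siderophores that is also on the injury list, rose from 3.82 to 4.13 CPM in young males to 62.2 to 129 in old males (log2 4.76, SE 0.206, edgeR adjusted p = 8.85e-10). Hfe, the partner of transferrin receptors that is mutated in human hemochromatosis, rose by 1.64 (SE 0.194, edgeR adjusted p = 3.8e-06), with young males at 2.58 to 4.47 CPM and old males at 9.82 to 12.2. Slc39a8, an importer of divalent metals, fell by 1.45 (SE 0.137, edgeR adjusted p = 3.81e-07) and Iscu, the scaffold of iron-sulfur clusters, by 0.56 (SE 0.0623, edgeR adjusted p = 1.88e-06), or by 0.24 with library totals alone.

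Regulators and further uptake genes of the same list are given for old against young males whatever their result. Aco1, the enzyme that becomes iron regulatory protein 1, fell by 0.86 (SE 0.136, edgeR adjusted p = 6.97e-05) from 363.5 to 530.8 CPM in young males to 221.9 to 239.1 in old males. Slc39a14, an importer of iron not bound to transferrin, rose by 0.75 (SE 0.0978, edgeR adjusted p = 1.04e-05). Tfr2, a second transferrin receptor of low level here, fell by 1.45 (SE 0.427, edgeR adjusted p = 0.00956), and its adjusted p was 0.0576 without the 5 libraries of high Alb. Within DS its log2 difference was -3.51. Old males against old females gave log2 differences of -0.69 for Aco1, 0.85 for Slc39a14 and -1.41 for Tfr2. The male age difference less the female one was -1.21 for Aco1, 0.59 for Slc39a14 and -2.16 for Tfr2. In young males against young females Aco1 was higher by 0.52 (SE 0.136, edgeR adjusted p = 0.00746). That call was lost with library totals alone (0.35, edgeR adjusted p = 0.0502), with the inner medulla score (0.57, edgeR adjusted p = 0.107) and without the high Alb libraries (0.36, edgeR adjusted p = 0.112). Hamp, which encodes the iron hormone hepcidin, had 0, 5, 1 and 10 reads over the young female, young male, old female and old male libraries and was not tested.

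Genes of heme handling were mostly lower in old males. Of 23 tested, 14 fell and 2 rose against young males, with a median of -0.42, where all tested rows split 24.6% lower and 25.3% higher. Scaled by library totals alone, the same list split into 8 lower and 7 higher, so the balance depends on the scaling. Blvra, which reduces biliverdin to bilirubin, fell from 181.8 to 234.1 CPM to 31.4 to 62.8 (log2 -2.10, SE 0.154, edgeR adjusted p = 4.1e-08). Abcb6, a porphyrin transporter, fell by 0.64 (SE 0.0616, edgeR adjusted p = 4.9e-07), Alad, the second enzyme of heme synthesis, by 0.89 (SE 0.0991, edgeR adjusted p = 1.94e-06), and Flvcr2, a transporter named after a feline virus receptor, by 1.38 (SE 0.154, edgeR adjusted p = 2e-06). These 4 kept their direction with library totals.

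Heme oxygenase 1 (Hmox1), which breaks heme down and frees its iron, rose. It was 5.0, 8.5, 11.1 and 7.0 CPM in young males and 24.0, 35.7, 48.0 and 39.2 in old males. The old males lay above all other libraries, since young females reached 6.38 and old females 6.99. The log2 difference from young males was 2.21 (SE 0.268, edgeR adjusted p = 4.73e-06) and that from old females 3.06 (SE 0.285, edgeR adjusted p = 2.46e-07).

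**Figure D5:**
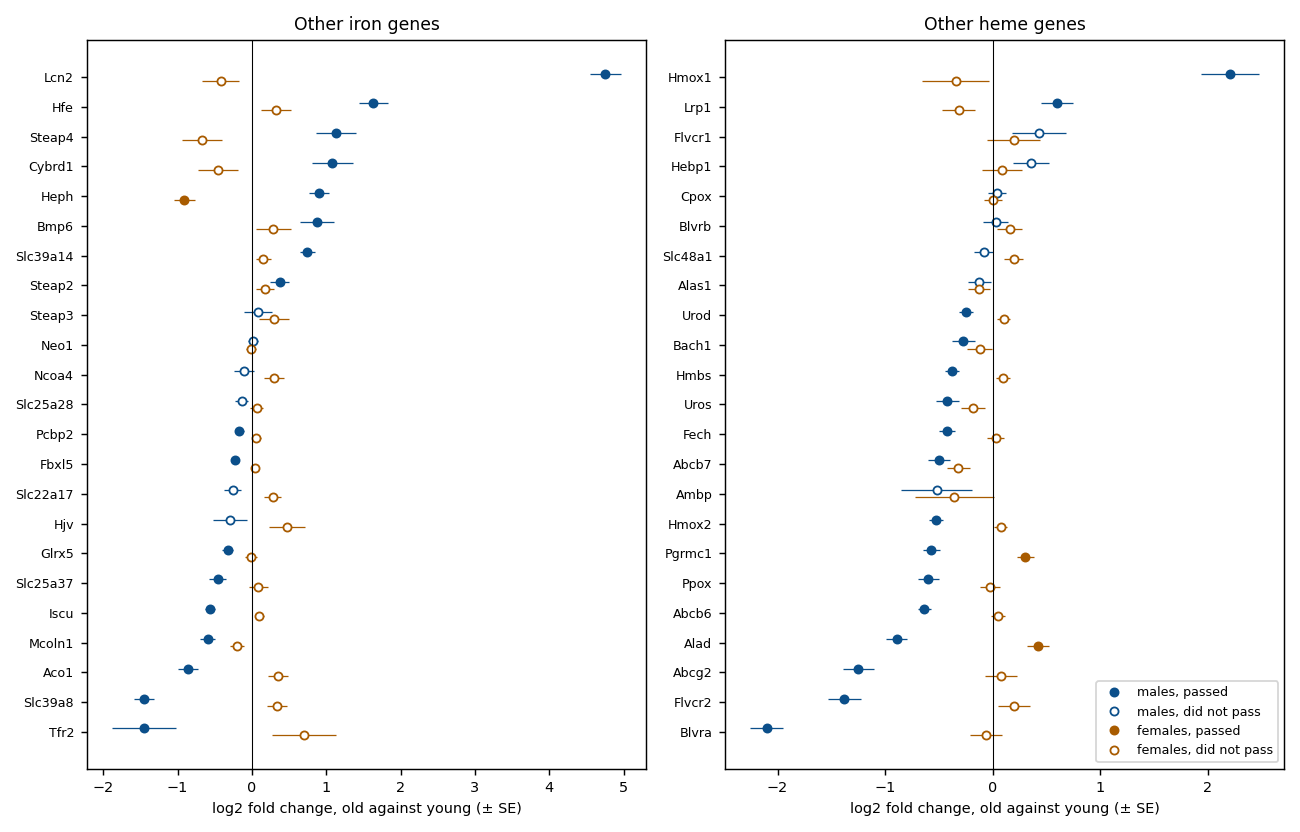
Log2 fold change of old against young, with standard errors, in males and in females for the other iron genes and the other heme genes, filled where the adjusted p is under 0.05. In males 17 iron and 16 heme genes are filled, and in females 1 (Heph) and 2 (Alad and Pgrmc1). The 1 iron gene not reported by name is not drawn, though it is counted with its list in the text.

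In females few of these genes passed with age, in a contrast where 5.71% of all tested rows passed. Of the 24 other iron genes 1 rose and 1 fell. Heph, hephaestin, a membrane ferroxidase related to ceruloplasmin, fell by 0.91 (SE 0.142, edgeR adjusted p = 0.00217) from 9.26 to 12.3 CPM to 5.09 to 6.28. The size was the same once the inner medulla score was a covariate, with an edgeR adjusted p of 0.0994. In males it rose by 0.90 (SE 0.136, edgeR adjusted p = 4.19e-05), and the age change differed between the sexes by 1.81 (SE 0.196, edgeR adjusted p = 4.64e-06). Of the 23 heme genes 2 rose, Alad by 0.42 (SE 0.0995, edgeR adjusted p = 0.021) and Pgrmc1, a heme-binding membrane protein, by 0.30 (SE 0.081, edgeR adjusted p = 0.0375). The call for Alad was lost in 8 of 20 alternatives and that for Pgrmc1 in 13. Adding the inner medulla score, Pgrmc1 was 0.13 (edgeR adjusted p = 0.691) and Alad 0.42 (edgeR adjusted p = 0.264). That score was lower in every old female library than in every young female one, so it is confounded with age here. Single libraries whose loss ended the call for Alad were young female replicates 1 and 2 and old female replicates 2 and 4, from 0.34 without young female replicate 1 to 0.39. For Pgrmc1 they were young female replicates 1, 2 and 4 and old female replicates 1, 2 and 4, from 0.26 without old female replicate 1 to 0.31.

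Between the young sexes, 7 iron genes were higher and 5 lower in males, and 7 heme genes higher and 1 lower, where 31.8% of all 14390 tested rows passed, 2308 as higher and 2266 as lower. Abcg2, an efflux pump for urate and porphyrins, was 204 to 274 CPM in young males and 48.4 to 62.6 in young females (log2 2.02, SE 0.152, edgeR adjusted p = 5.51e-08). Alad was higher in young males by 0.92 (SE 0.0998, edgeR adjusted p = 2.85e-06), and Pgrmc1 by 0.68 (SE 0.0813, edgeR adjusted p = 7.92e-06). Ppox, the penultimate enzyme of heme synthesis, was lower, with a log2 difference of -0.52 (SE 0.0939, edgeR adjusted p = 0.000517). Of the iron genes, Slc22a17, a receptor of lipocalin 2, was higher by 0.73 (SE 0.116, edgeR adjusted p = 0.000151), and the metalloreductases Steap2 and Steap4 were lower, with log2 differences of -0.57 (SE 0.124, edgeR adjusted p = 0.00206) and -1.19 (SE 0.275, edgeR adjusted p = 0.00341). Without the 5 libraries of high Alb the iron count was 2 higher and 2 lower, and Steap4 had an adjusted p of 0.0576. With the inner medulla score Steap4 was -0.99 (edgeR adjusted p = 0.164).

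Between the old sexes, 4 iron genes were higher and 9 lower in males, and 5 heme genes higher and 11 lower, where 49.3% of all tested rows passed, 25.5% as higher and 23.8% as lower. With library totals alone these were 8 and 4, and 7 and 5. Blvra was lower, with a log2 difference of -2.01 (SE 0.153, edgeR adjusted p = 3.02e-08), as was Ppox with -1.09 (SE 0.0944, edgeR adjusted p = 1.1e-07). Red cell genes, which would mark blood in the tissue, gave no difference that passed among the 4 tested in any of the 5 contrasts by edgeR. Their summed level ran from 21.0 to 238.2 CPM in young females and from 24.0 to 128 in the other groups.

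The genes most like each member that passed in any contrast were sought over the 16 libraries. The measure was the root mean square difference in log2 CPM, each gene centred on its own mean. Cp was closest to Cd53, a leukocyte tetraspanin, at 0.283, Fblim1 at 0.295 and Ptprc, the leukocyte antigen CD45, at 0.297, while its own standard deviation was 1.21. Tf was closest to Fermt3 at 0.457, Pik3r1 at 0.461 and the complement gene C5 at 0.479. Hpx was closest to C3, another complement gene, at 0.715. Tfrc was closest to Vwce at 0.339, Rarres1 at 0.343 and Tkfc at 0.349. Fth1 was closest to Dnajc12 at 0.0745 and Ireb2 to Spag9 at 0.0655. For Hp the nearest gene, Zfp354a, differed by 1.39.

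The authors' deposited table of young against old males listed Tfrc at 1.40 (FDR 6.75e-08), Cp at -2.86 (FDR 1.4e-54) and Tf at -1.87 (FDR 1.67e-07), as young minus old. The authors' deposited table of old males against old females listed Cp at 2.80, Hpx at 3.22 and Tf at 2.01, and that of young males against young females listed Hp at 3.65 (FDR 3.3e-05). These tables hold only genes past a log2 difference of 1 in size.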

How the data were processed

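Counts per gene and RPKM for 16 libraries came from the authors' deposited table; the RPKM values equal the counts divided by gene length and library total to within 6.7e-16. Libraries were made with a stranded mRNA kit, per the labels' protocols; the aligner, the counting tool and its strand setting: not given in the sources used here. The submitters' processing notes name the Rnor_6.0 build and edgeR 3.8.6. The authors' deposited tables of pairwise comparisons give a log2 fold change and an FDR, each for genes past both thresholds only. Gene spans were not used in the tests, since 70.5% of those in the table are shorter than the stated gene length. Chromosomes and start positions served to find the nearest named genes of the ferritin light chain rows.

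The counts were tested with edgeR 4.0.16 in R 4.3.3: TMM scaling, filterByExpr, 1 mean per group over all 16 libraries, quasi-likelihood tests and Benjamini-Hochberg adjustment over 14390 rows (99.93% of counts; threshold 0.05; biological coefficient of variation 0.13). CPM uses TMM-scaled totals. Log2 fold changes are the fitted ones, and their standard error is the fold change divided by the root of the F value. The script was tested on simulated data: all genes given a fold of 4 were recovered (100% in a simulated old against young male contrast on 14158 genes). No libraries were copies (chi-square per degree of freedom 6.28 to 49.5 within groups). Depth per library was 11570788 to 14736236 counts (young females), 13416132 to 20274749 (young males), 14269100 to 17048319 (old females) and 10827485 to 35957516 (old males); low counts such as those of Hp and Hpx carry counting error besides.

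Libraries were grouped by title. Alternatives were DESeq2 1.42.0, limma-voom (limma 3.58.1), RLE factors, library totals alone, other low-count filters, a fit of the compared groups by themselves, a block for the replicate number, a covariate for either the identifier prefix or an inner medulla score, the DS subset, and single libraries left out; leaving out the 5 libraries with Alb above 10 CPM was added after the data were seen. The members, gene lists and tests were chosen with earlier results of these data known. Besides the members, the text names at most 4 called genes per list and contrast, those of smallest p, and Hmox1, Hamp, Aco1, Slc39a14 and Tfr2. Likeness was sought among genes of mean CPM at least 5. Promoters are from RefSeq (GRCr8). 1 gene of the other iron genes is counted with its list but is not reported here by name.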

Additional observations from a re-analysis of the deposited data

Results flagged for a closer look

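The difference between the sexes in the age change was tested with the interaction term and passed for 5 rows. These were 4 of the 11 member rows and LOC100360087, which was added after its values were seen. Of all tested rows 38.7% passed. The male age difference less the female one was 1.95 for Tf, -1.66 for Tfrc, -0.54 for Fth1, 3.6 for Cp and -0.55 for LOC100360087, all on the log2 scale, and the report gives each standard error and adjusted p. Cp was higher in all 4 old male libraries than in the other 12, and Tf in 3 of the 4. For Tfrc the sex difference was -0.92 in the old and 0.73 in the young, so that both ages enter the -1.66. Macrophage and tubule injury markers were higher in old males, and their sums were highest in replicate 4, whose Tf lay with the young males. The part of these markers was not tested.

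A library far from the other 3 of its group was found in 5 of the 48 groups of values examined, and chance gives about 1 in 20. These were the small Slc40a1 row in old male replicate 4 at 1.07 CPM, Cp in young male replicate 1 at 25.4 CPM, Hp in old male replicate 2 at 7.25 CPM, Ireb2 in young male replicate 3 at 62.9 CPM and LOC100360087 in young female replicate 3 at 1240 CPM. For Hp the same library holds 115 CPM of Alb. For Tf, old male replicate 4 (104.2 CPM) stands below the other 3 old males but was not past the limit.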

How the results depend on the processing

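Of 18 member calls, 386 alternative values were computed; 351 kept direction and call, 34 lost the call and 1 reversed. The rule for naming list genes allowed 46 calls, of which the text prints only a part. Of their 1004 alternative values, 970 kept both direction and call and 34 lost the call. The count of members called for old against young females went from 0 to 1 with DESeq2 and without the 5 libraries of high Alb (Slc40a1, 0.62, adjusted p = 0.0235), and lay between 0 and 1 with single libraries left out. For young males against young females it went from 4 to 2 with library totals alone, with the inner medulla score and without the high Alb libraries, and lay between 2 and 4 with single libraries left out (2 without young female replicate 1 or 2 or young male replicate 2 or 4). For old males against old females it went from 5 to 2 within DS. Of 17 pairs of row and contrast that passed in no setting, 14 changed sign in some setting. Among the other pairs, values that changed sign were, with library totals alone, Slc11a2 (0.0382) and Ireb2 (0.0476) in old against young males, Slc40a1 (0.0223) in old males against old females and Slc11a2 (0.048) for age by sex. With the inner medulla score they were Slc40a1 in old against young females (-0.0354) and LOC100360087 for age by sex (0.00986), within DS Slc40a1 in old males against old females (0.16), and without the high Alb libraries Ireb2 in that contrast (-0.00954). Library totals shift the median of all genes by 0.32 in old against young males, -0.18 in young males against young females, 0.21 in old males against old females and 0.37 for age by sex, and split the calls of the first into 7849 higher and 1329 lower against 3644 and 3545; beyond these medians the cause was not tested. Tf for age by sex was 1.46 with the inner medulla score (adjusted p = 0.102), and Hp for young males against young females 2.42 with limma-voom (adjusted p = 0.292). Same-numbered libraries did not deviate together (r from -0.131 to 0.204 over 24 pairs, 4 above 0.1), so numbers do not pair libraries; with the replicate block 5, 0, 5, 5 and 4 members passed in the 5 contrasts, and Hpx in young males against young females passed at 1.56 (adjusted p = 0.0477). Depth limits Hp, Hpx and the small Slc40a1 row, whose lowest adjusted p was 0.177.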
